A study of Mus musculus with 12 samples.

Results

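Cd44, Ccnd1, Cldn2, Ephb2, Cd24a and Prom1 are 6 genes that are known targets of Wnt signalling, or markers of Wnt-active cells, and whose products lie at the cell surface or drive the cell cycle. They were chosen by name, and every probe whose identifier holds the NCBI gene number of a member was read. This gave 11 of the 46079 probes on the arrays that are not controls, and 6 of the 8106 genes that could be named. Of the 11 probes, 10 rose above background on at least 2 arrays and were tested: 3 for Ccnd1, 2 each for Cd44 and Ephb2, and 1 each for Cldn2, Cd24a and Prom1. A further Prom1 probe (probe 2) was above background on 0 arrays and has no result.

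The series profiled total RNA of intestinal tissue on Illumina bead arrays, with 12 arrays in 6 groups of 2. All mice were of the Apcmin strain, in which a mutant copy of the tumour suppressor Apc leads to intestinal adenomas. Tumour and normal tissue were taken from Notch-activated mice (Vil-Cre;RosaN1+/RN1, in which Cre switches on a Notch1 transgene at the Rosa locus), from Notch-inactivated mice (Vil-Cre;Mib1f/f, in which Cre deletes Mib1) and from mice labelled wt (WT). The comparison of interest here is how the tumour level of each gene differs when Notch is activated in an Apc-mutant gut. The Villin promoter drives Cre in gut epithelium, so stromal and immune cells in the same tissue are not targeted. The labels give no gut segment, no Cre status for the WT mice and no statement that paired arrays hold different animals, so p-values may rest on technical spread alone.

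Wnt ligands stabilise beta-catenin, which joins TCF and LEF proteins on DNA and switches on genes that keep crypt cells dividing. APC belongs to the complex that degrades beta-catenin, so its loss in the intestine turns this programme on without ligand and starts an adenoma. Notch signalling acts between neighbouring cells: MIB1 is a ubiquitin ligase that ligand-bearing cells need, and the cleaved Notch receptor then acts through the DNA-binding protein RBPJ. In the gut, Notch holds progenitors back from the secretory fates of goblet and Paneth cells.

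The deposited values read as quantile-normalized log2 signals, and a level or a difference below is on that log2 scale unless a fold is named. Signal depends on the probe as well as on the amount of RNA, so levels are compared between samples and not between probes. Across the 21322 probes tested, the 2 replicates of each group had a Pearson correlation of 0.984 to 0.991. The background limit of an array, the 95th percentile of 61 probes for sequences foreign to the mouse, was 5.68 to 5.74 on tumour arrays and 5.75 to 6.16 on normal arrays. The genotype was checked with a probe for the green fluorescent reporter eGFP, which read at least 9.50 on the 4 Notch-activated arrays and at most 5.48 on the 8 others. Mib1 averaged 6.23 in Notch-inactivated tumours, against 6.75 in WT tumours, and 6.12 in Notch-inactivated normal tissue, against 6.40 in WT normal tissue. Neither Mib1 difference was called (limma, adjusted p = 0.155 and 0.180), and the place of the Mib1 probe relative to the deletion is not given in the sources used here. In bulk tissue, fewer cells of a type and less RNA per cell cannot be told apart.

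In tumours with activated Notch the calls among the 6 genes went in different directions, and no test set gene against gene. Ccnd1 was higher than in WT tumours, by 1.42-fold to 2.04-fold at the probes that were called. Cldn2 and Cd24a were lower, at 0.699 and 0.614 of the WT tumour level. No difference from WT tumours was called for Cd44, Ephb2 or Prom1. In all, 2 of 10 member probes were called higher and 2 lower in Notch-activated than in WT tumours, where 12.2% of all probes tested were called higher and 11.3% lower. Of these member calls, only that of Ccnd1 probe 2 held in every fit that left out 1 array. In Notch-inactivated tumours, 0 of 10 member probes were called against WT (limma, adjusted p under 0.05), where the background was 0.234%; at an unadjusted p under 0.05 the count was 1, Cd24a.

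**Figure D1:**
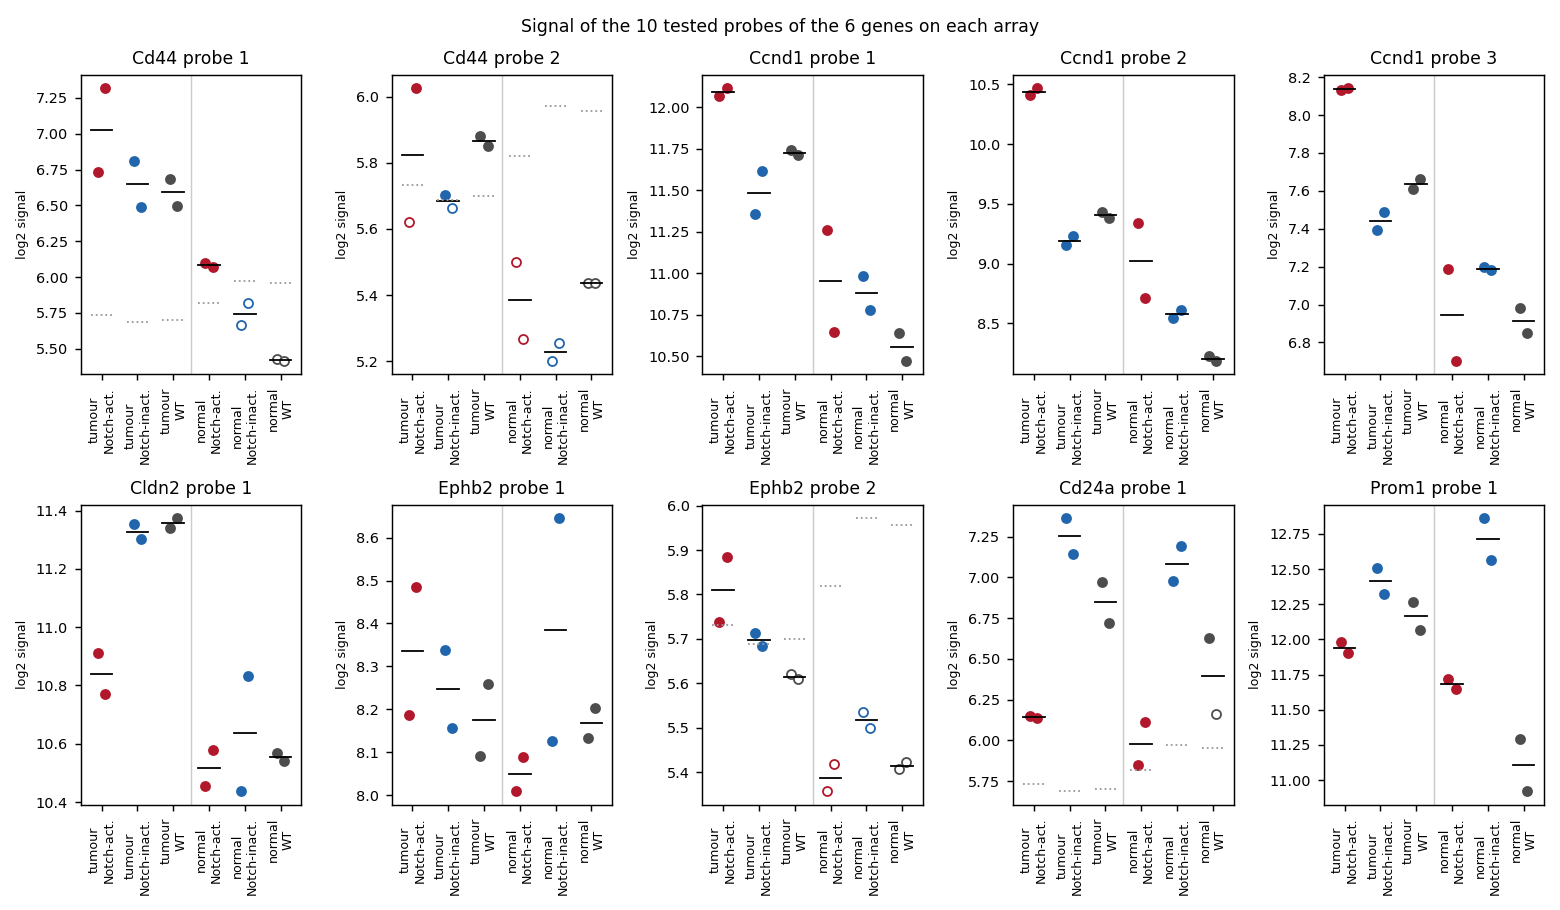
Log2 signal (vertical axis) of the 10 tested probes on each of the 12 arrays, in tumours and then normal tissue, each with Notch-activated (red), Notch-inactivated (blue) and WT (grey) samples. Points are arrays, open where not above the array's background limit, black lines are means of 2 arrays and dotted lines the mean limit of a group. The Ccnd1 probes are highest in Notch-activated tumours, while Cldn2 and Cd24a are lowest there among the tumours.

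Ccnd1 encodes cyclin D1, the partner of CDK4 and CDK6 that carries cells through the G1 phase. Probe 2 read 10.41 and 10.47 in Notch-activated tumours, 9.15 and 9.23 in Notch-inactivated tumours, and 9.43 and 9.38 in WT tumours. The same probe read 9.34 and 8.71 in Notch-activated, 8.55 and 8.62 in Notch-inactivated, and 8.22 and 8.19 in WT normal tissue. Both Notch-activated tumours thus lay above every other array of the series, while the lower of the Notch-activated normal samples lay well below its partner. Against WT tumours the Notch-activated difference was 1.03 (95% confidence interval 0.66 to 1.40, 2.04-fold; limma, adjusted p = 0.00154). That call held in all 12 fits that left out 1 array, with an adjusted p of at most 0.0133.

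The other Ccnd1 probes gave smaller differences in the same direction. Probe 3 read 8.13 and 8.14 in Notch-activated tumours, 7.39 and 7.49 in Notch-inactivated tumours, and 7.61 and 7.66 in WT tumours. It was higher by 0.50 than in WT tumours (1.42-fold; limma, adjusted p = 0.0268), a call lost without either Notch-activated or either WT tumour array (adjusted p 0.0778 to 0.124). Probe 1 read 12.07 and 12.11 in Notch-activated tumours, 11.35 and 11.61 in Notch-inactivated tumours, and 11.74 and 11.71 in WT tumours. The groups did not overlap, yet its difference of 0.36 from WT tumours was not called (interval -0.04 to 0.77; limma, adjusted p = 0.192). It was called when only the 4 arrays compared entered the fit (adjusted p = 0.0417). The size of the Ccnd1 change therefore depended on the probe, and whether the probes read different transcripts was not tested.

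Ccnd1 was also higher in tumours than in normal tissue. Tumour minus normal differences at probes 1, 2 and 3 were 1.14, 1.42 and 1.19 in Notch-activated mice, all called. In WT mice they were 1.17, 1.20 and 0.72, again all called. In Notch-inactivated mice they were 0.60, 0.61 and 0.25, of which the first 2 were called. Those 2 calls were lost without Notch-inactivated tumour array 2 (limma, adjusted p = 0.117 and 0.0577), and also without normal array 2 (probe 1, 0.0956) or 1 (probe 2, 0.0505) of the same genotype, while probe 3 was called without either Notch-activated normal array (0.0397). The difference between the tumour change of Notch-inactivated and WT mice was -0.56 at probe 1, -0.59 at probe 2 and -0.47 at probe 3, and none of the 3 passed the test (limma, adjusted p between 0.405 and 0.493). The same difference between Notch-activated and WT mice was -0.03, 0.21 and 0.47, not called, although without Notch-activated normal array 1 it was called at probe 2 (0.53, adjusted p = 0.0463) and probe 3 (0.71, adjusted p = 0.0199).

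Against Notch-inactivated tumours, Notch-activated tumours were higher at all 3 probes, by 0.61, 1.25 and 0.70. Of these, the call at probe 1 (adjusted p = 0.0360) was lost without any 1 of the 4 tumour arrays compared, with an adjusted p up to 0.193. In normal tissue, probe 2 was higher by 0.82 in Notch-activated than in WT samples (1.76-fold; limma, adjusted p = 0.0129), and without either WT normal array it was not called (adjusted p 0.0602 and 0.0698). Probe 1 differed by 0.40 (interval -0.01 to 0.80) and was called without Notch-activated normal array 2 alone (0.71, adjusted p = 0.0343), the lower of the pair, while probe 3 differed by 0.03.

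Cldn2 encodes claudin 2, a tight junction protein that forms channels for cations and water in crypt epithelium. Its promoter is shown because Cldn2 is the member with a TCF and LEF core match whose tumour level was lower under activated Notch. The sequence is from RefSeq (GRCm38.p6), chrX:139800558-139800807 on the plus strand, the 250 bases before the start site. Capitals mark the match to the core CTTTG, here on the opposite strand as CAAAG.
Cldn2: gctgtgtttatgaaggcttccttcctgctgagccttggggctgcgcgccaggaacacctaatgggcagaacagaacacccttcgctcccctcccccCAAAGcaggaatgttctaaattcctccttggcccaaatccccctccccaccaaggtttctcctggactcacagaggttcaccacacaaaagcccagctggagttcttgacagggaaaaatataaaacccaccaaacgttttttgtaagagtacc

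Cldn2 signal was 10.91 and 10.77 in Notch-activated tumours, 11.35 and 11.30 in Notch-inactivated tumours, and 11.34 and 11.37 in WT tumours. In normal tissue it was 10.46 and 10.58 in Notch-activated, 10.44 and 10.83 in Notch-inactivated, and 10.57 and 10.54 in WT samples. Notch-activated tumours thus sat between the other tumours and normal tissue, and they overlapped the range of Notch-inactivated normal samples. Cldn2 fell by 0.52 in Notch-activated tumours against WT tumours (interval -0.80 to -0.23; limma, adjusted p = 0.0151). It was lower than in Notch-inactivated tumours too, by a difference of -0.49 (adjusted p = 0.0193). Leaving out either WT tumour, or the second tumour with activated Notch, ended the first call (adjusted p 0.0633 to 0.0991). The second call ended without that same Notch-activated sample, and without either of the tumours with inactivated Notch (adjusted p 0.0736 to 0.118).

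Tumour minus normal, Cldn2 rose by 0.69 in Notch-inactivated mice (1.62-fold; limma, adjusted p = 0.00133) and by 0.80 in WT mice (1.74-fold; adjusted p = 0.000544). In Notch-activated mice the difference was 0.32 (interval 0.04 to 0.61; adjusted p = 0.0852), which was called without either Notch-inactivated normal array (adjusted p = 0.0297). Those 2 arrays lay apart from each other, and all arrays share 1 estimate of the spread in the fit. The tumour change of Notch-activated mice differed from that of WT mice by -0.48 (interval -0.88 to -0.08), which did not pass the test (adjusted p = 0.116). It passed when either of those arrays was left out (adjusted p = 0.0407).

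Cd24a encodes a small surface glycoprotein found on crypt base and secretory cells. Its signal was 6.15 and 6.13 in Notch-activated tumours, 7.36 and 7.14 in Notch-inactivated tumours, and 6.97 and 6.72 in WT tumours. In normal tissue it was 5.85 and 6.11 in Notch-activated, 6.98 and 7.19 in Notch-inactivated, and 6.63 and 6.16 in WT samples, of which the last was not above its array's limit. The highest and lowest groups were thus the same in both tissues: Notch-inactivated samples were above WT and Notch-activated samples below WT. In tumours, Cd24a fell by 0.70 in Notch-activated against WT samples (interval -1.08 to -0.33; limma, adjusted p = 0.0139). Against Notch-inactivated tumours the difference was -1.11, a fold of 0.464 (adjusted p = 0.00116). The call against WT ended without WT tumour array 1 or either tumour with activated Notch (adjusted p 0.0639 to 0.104), while the call against Notch-inactivated tumours held in every fit that left out 1 array.

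The tumour change of Cd24a was small. It was 0.16 in Notch-activated mice (interval -0.22 to 0.54), 0.17 in Notch-inactivated mice (interval -0.21 to 0.55) and 0.45 in WT mice (interval 0.07 to 0.83). The WT change was called (limma, adjusted p = 0.0467) but was lost without WT normal array 2, where it was 0.22 (adjusted p = 0.330), without WT tumour array 1 (0.33, adjusted p = 0.238), and without any of the 6 arrays of Notch-activated tumours, Notch-inactivated tumours and Notch-activated normal tissue (adjusted p 0.0507 to 0.0627). Within normal tissue the Cd24a difference from WT was -0.42 in Notch-activated and 0.69 in Notch-inactivated samples, neither of them called (adjusted p = 0.188 and 0.0517). The second was called without WT normal array 1, at 0.92 (adjusted p = 0.0302).

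Prom1 encodes prominin 1 (CD133), a pentaspan membrane protein of epithelial protrusions that marks crypt cells. Its promoter is shown because Prom1 was the member with the largest difference from WT in normal tissue, where both other genotypes were higher. The sequence is from RefSeq (GRCm38.p6), chr5:44101737-44101986 on the minus strand, the 250 bases before the start site of the first of 2 Prom1 windows. Capitals mark the match to the RBPJ core TGGGAA, here on the opposite strand as TTCCCA.
Prom1: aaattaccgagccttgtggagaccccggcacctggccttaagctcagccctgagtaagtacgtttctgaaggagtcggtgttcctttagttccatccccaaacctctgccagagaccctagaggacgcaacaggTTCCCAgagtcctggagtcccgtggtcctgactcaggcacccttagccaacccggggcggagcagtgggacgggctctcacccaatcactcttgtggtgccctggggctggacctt

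Prom1 signal was 11.98 and 11.90 in Notch-activated tumours, 12.51 and 12.32 in Notch-inactivated tumours, and 12.27 and 12.06 in WT tumours. In normal tissue it was 11.72 and 11.65 in Notch-activated, 12.86 and 12.57 in Notch-inactivated, and 11.29 and 10.92 in WT samples. WT normal tissue was thus the lowest group, and Notch-inactivated normal tissue lay above all tumours. Between tumours, the Notch-activated minus WT difference was -0.23 (interval -0.56 to 0.10; limma, adjusted p = 0.330) and was not called. Against Notch-inactivated tumours it was -0.48 (adjusted p = 0.0423), and leaving out any 1 of 6 arrays, the 4 compared and both Notch-activated normal arrays, ended that call (adjusted p 0.0600 to 0.209).

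Tumour minus normal, Prom1 rose by 1.06 in WT mice (2.08-fold; limma, adjusted p = 0.000258). The difference was 0.25 in Notch-activated mice (interval -0.08 to 0.59) and -0.30 in Notch-inactivated mice (interval -0.63 to 0.03), and neither was called. The change in Notch-activated mice was smaller than in WT mice by a tested difference of -0.80 (adjusted p = 0.0323), and the change in Notch-inactivated mice by -1.36 (adjusted p = 0.0239). These were the only member probes called in those 2 tests, 1 of 10 in each, where 6.07% and 0.488% of all probes were called in that direction. In normal tissue Prom1 was higher by 1.61 in Notch-inactivated than in WT samples (3.05-fold; adjusted p = 0.000739) and by 0.58 in Notch-activated than in WT samples (1.49-fold; adjusted p = 0.0391). The first of these held in every fit that left out 1 array. The second was lost without WT normal array 2, where it was 0.39 (adjusted p = 0.220), and without either Notch-activated normal array or any tumour array of the Notch-altered mice (adjusted p up to 0.171).

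Cd44 encodes a receptor for hyaluronan and osteopontin and is found at the crypt base and on many immune cells. Its promoter is shown because it is the only member promoter read here that holds both cores. The sequence is from RefSeq (GRCm38.p6), chr2:102901666-102901915 on the minus strand, the 250 bases before the start site. Capitals mark TGGGAA (also as TTCCCA) and CAAAG, the opposite strand of CTTTG, and the 3 matches do not overlap.
Cd44: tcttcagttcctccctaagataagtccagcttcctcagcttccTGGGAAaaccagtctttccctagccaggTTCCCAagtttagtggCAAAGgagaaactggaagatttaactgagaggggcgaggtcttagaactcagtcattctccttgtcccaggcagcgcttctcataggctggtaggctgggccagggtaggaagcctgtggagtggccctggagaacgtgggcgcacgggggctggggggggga

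Cd44 probe 1 read 6.74 and 7.32 in Notch-activated tumours, 6.81 and 6.49 in Notch-inactivated tumours, and 6.68 and 6.50 in WT tumours. It read 6.10 and 6.07 in Notch-activated, 5.66 and 5.82 in Notch-inactivated, and 5.43 and 5.42 in WT normal tissue, and the last 4 of these values were not above background. Every tumour array was higher than every normal array. The probe was called higher in tumours in all genotypes: by 0.94 in Notch-activated mice (1.92-fold; limma, adjusted p = 0.00503), at least 1.60-fold in Notch-inactivated mice (adjusted p = 0.00199) and at least 1.55-fold in WT mice (adjusted p = 0.000439). An "at least" fold sets the brighter group against the background limit, or the probe's own signal where that is higher.

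Between Notch-activated and WT tumours, Cd44 probe 1 differed by 0.44 (interval 0.04 to 0.83), which was not called (limma, adjusted p = 0.112). This difference rested mostly on Notch-activated tumour array 2, and without array 1 it was 0.73 (adjusted p = 0.0152). Probe 2 differed by -0.04 in the same comparison (interval -0.34 to 0.25; adjusted p = 0.868). Against Notch-inactivated tumours probe 1 differed by 0.38 (interval -0.02 to 0.78; adjusted p = 0.167), and it was called without array 1 (0.67, adjusted p = 0.0209). In normal tissue, probe 1 was called higher in Notch-activated than in WT samples, by at least 1.09-fold (adjusted p = 0.0478), a call lost without any 1 of 8 of the 12 arrays (adjusted p 0.0562 to 0.178). Probe 2 lay near background, between 5.62 and 6.03 in tumours and between 5.20 and 5.50 in normal tissue. The fit called it higher in tumours in all 3 genotypes (limma, adjusted p = 0.0350, 0.0156 and 0.0203 in Notch-activated, Notch-inactivated and WT mice), but its normal values all lay below the limit, so no difference or fold is given. Its tumour mean stood only 0.0036 above the normal arrays' limit in Notch-activated mice and below it in the other genotypes. Against the limit, next to no rise was shown in Notch-activated mice and none in the others. Each of these probe 2 calls was lost when 1 array was left out: without 2 arrays in Notch-activated mice (adjusted p up to 0.241), 3 in Notch-inactivated mice (0.0537 to 0.0685) and 4 in WT mice (0.0620 to 0.0828).

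Ephb2 encodes a receptor tyrosine kinase for ephrin B ligands, which positions cells along the crypt. Probe 1 read 8.19 and 8.48 in Notch-activated tumours, 8.34 and 8.16 in Notch-inactivated tumours, and 8.09 and 8.26 in WT tumours. It read 8.01 and 8.09 in Notch-activated, 8.13 and 8.64 in Notch-inactivated, and 8.13 and 8.20 in WT normal tissue. The 3 tumour groups overlapped one another, and among normal samples the Notch-activated ones lay below the rest. Probe 1 was called in none of the 10 comparisons by limma. Its tumour minus normal difference in WT mice was 0.01 with an interval of -0.37 to 0.38, and between Notch-activated and WT tumours it was 0.16 with an interval of -0.21 to 0.53.

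Ephb2 probe 2 lay at the edge of background, above the limit on 4 of 12 arrays, both Notch-activated and both Notch-inactivated tumours. The fit called it higher in tumours of Notch-activated mice (limma, adjusted p = 0.00704), a call lost without Notch-activated tumour array 2 (adjusted p = 0.0626). The normal samples lay below the limit and the tumour mean did not exceed that limit, so no difference or fold is given. A rise of Ephb2 in adenomas was thus not called at its brighter probe, and whether that probe reads Ephb2 transcripts well was not tested.

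**Figure D2:**
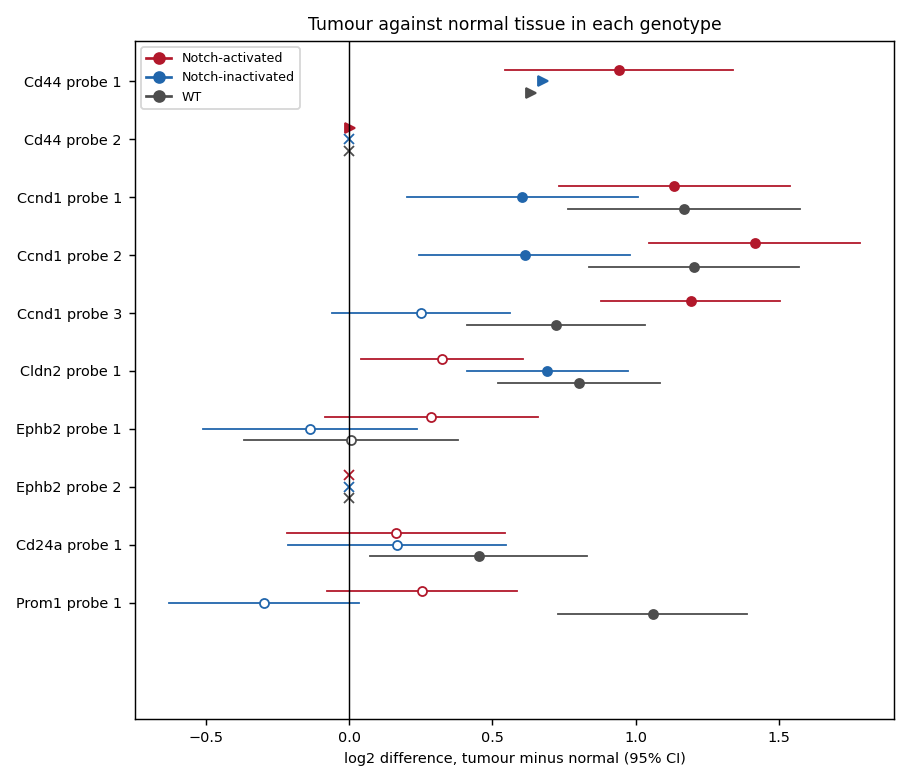
Tumour minus normal log2 difference (horizontal axis, with its 95% confidence interval) for each tested probe in Notch-activated (red), Notch-inactivated (blue) and WT (grey) mice. Filled points were called at an adjusted p under 0.05, open points were not, a triangle marks a bound set by normal tissue at background, and a cross on 0 marks a probe with no difference past the background limit. Cd44 probe 1 and Ccnd1 lie to the right of 0 in each genotype, and Prom1 was called in WT mice and in neither other genotype.

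Set side by side, tumour against normal tissue gave 6 of 10 member probes called higher in Notch-activated mice, 5 in Notch-inactivated mice and 8 in WT mice, and none lower. These counts include Cd44 probe 2 in each genotype and Ephb2 probe 2 in Notch-activated mice, whose normal values lay below the limit. The calls that also lay past the limit were 5, 4 and 7, and the 5 include Cd44 probe 2, past it by only 0.0036. Over all probes tested, the shares called higher were 13.1%, 26.5% and 25.2%. With probes at background set to their bound, or to 0 where none was shown, the median difference of the member probes was 0.31, 0.21 and 0.68 in those 3 genotypes, against fitted medians of -0.02, -0.01 and -0.03 over all probes. The members called past the limit in Notch-activated mice were Ccnd1 and Cd44, while Cldn2, Cd24a and Prom1 joined Ccnd1 and Cd44 in WT mice.

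Against WT normal tissue, 3 of 10 member probes were called higher in Notch-activated normal tissue (Ccnd1 probe 2, Cd44 probe 1 and Prom1), where 4.11% of all probes were called higher. In Notch-inactivated normal tissue it was 1 of 10 (Prom1), with a background of 2.34% called higher. Between Notch-activated and Notch-inactivated tumours, 3 probes were higher (all of Ccnd1) and 3 lower (Cldn2, Cd24a and Prom1), with a background of 12% higher and 11.8% lower. The comparisons with WT share the WT arrays, so they are not independent of each other.

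**Figure D3:**
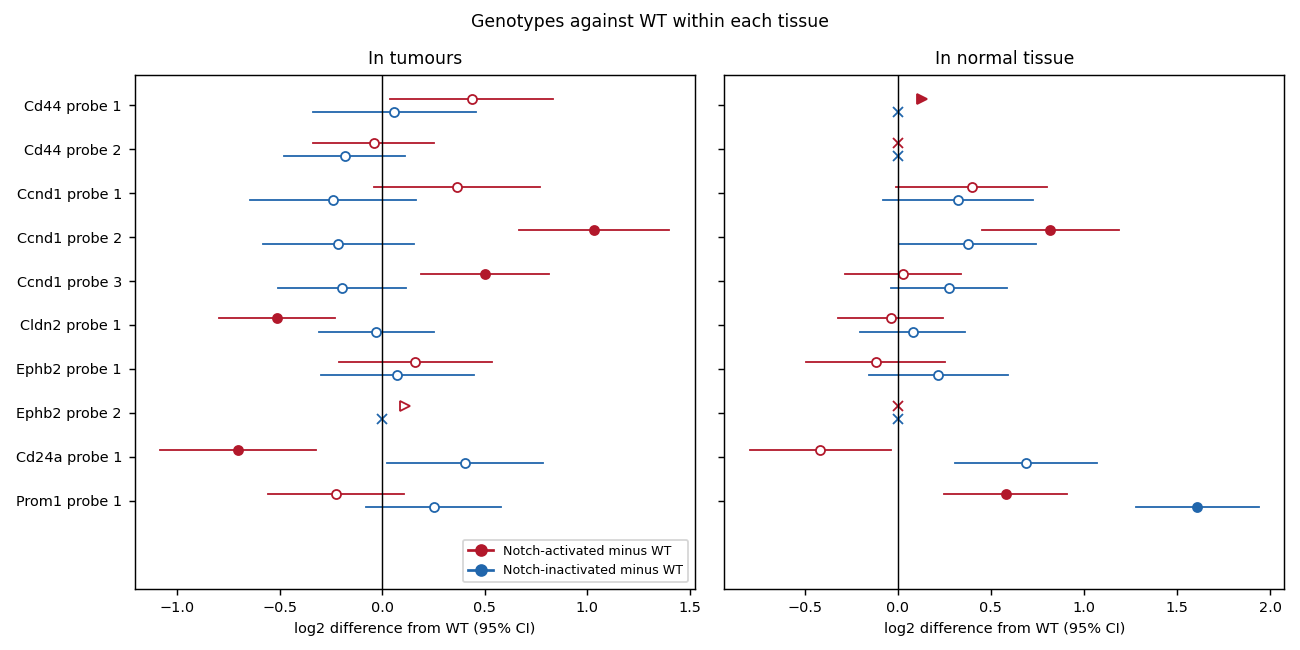
Log2 difference from WT (horizontal axis, with its 95% confidence interval) in tumours (left) and normal tissue (right), for Notch-activated (red) and Notch-inactivated (blue) samples. Filled points were called at an adjusted p under 0.05, open points were not, triangles mark bounds where 1 side is at background, and crosses on 0 mark probes with no difference past the limit. In tumours the called points are Notch-activated only, with Ccnd1 to the right and Cldn2 and Cd24a to the left of 0, and in normal tissue Prom1 of Notch-inactivated samples lies farthest right.

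Other Wnt targets and feedback genes gave a different picture from Ccnd1. Of a list of 27 such genes, 7 were named on the array and 5 were tested, each by its brightest probe. All 5 were called higher in tumours of Notch-inactivated and of WT mice, and 3 in Notch-activated mice. Over all probes tested, 26.5%, 25.2% and 13.1% were called higher in those comparisons. Nkd1 and Prox1 were above background in tumours only, and Wnt6 in Notch-inactivated and WT tumours only. The filter thus kept these genes through the groups in which they were high, which favoured such calls. In Notch-activated tumours all 5 were called lower than in WT tumours, with a median difference of -1.68 when Wnt6, at background in Notch-activated tumours, is set to its bound, against 0.02 over all probes tested. Of all probes, 11.3% were called lower in that comparison. The lists used here were chosen with earlier results of these data known, so these counts describe the genes and are no independent evidence.

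Nkd1, a feedback inhibitor that binds Dishevelled, read 6.03 and 6.10 in Notch-activated tumours, 9.96 and 10.23 in Notch-inactivated tumours, and 10.09 and 9.70 in WT tumours. The Notch-activated minus WT tumour difference was -3.83 (limma, adjusted p = 5.91e-07), and the Notch-activated tumours were called above normal tissue by at least 1.19-fold (adjusted p = 0.00452). Prox1, a homeobox factor of adenoma cells, averaged 5.92 in Notch-activated tumours, 9.43 in Notch-inactivated tumours and 9.54 in WT tumours (n = 2 each), a Notch-activated minus WT difference of -3.62 (adjusted p = 9.43e-07). Its tumour level in Notch-activated mice was not called above normal tissue (adjusted p = 0.0696), though it was without either WT tumour array (0.0344). Sox4, an SRY-box factor, differed by -1.68 (adjusted p = 0.000387) and was higher by 1.68 in tumour than normal tissue of Notch-activated mice (adjusted p = 0.000701). The ligand gene Wnt6 was at background in Notch-activated tumours, at least 3.01-fold lower than in WT tumours (adjusted p = 1.81e-05). Ascl2, a factor of crypt base stem cells, is named because it completes the 5: it was lower by a difference of -0.72 (adjusted p = 0.0152), a call lost without Notch-activated tumour array 1 (adjusted p = 0.119) or WT tumour array 1 (0.117). Its rise in Notch-activated tumours (adjusted p = 0.0435) was lost without 7 of the 12 arrays (up to 0.246), and that in WT tumours (0.0443) without either WT normal array or WT tumour array 1 (up to 0.244).

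**Figure D4:**
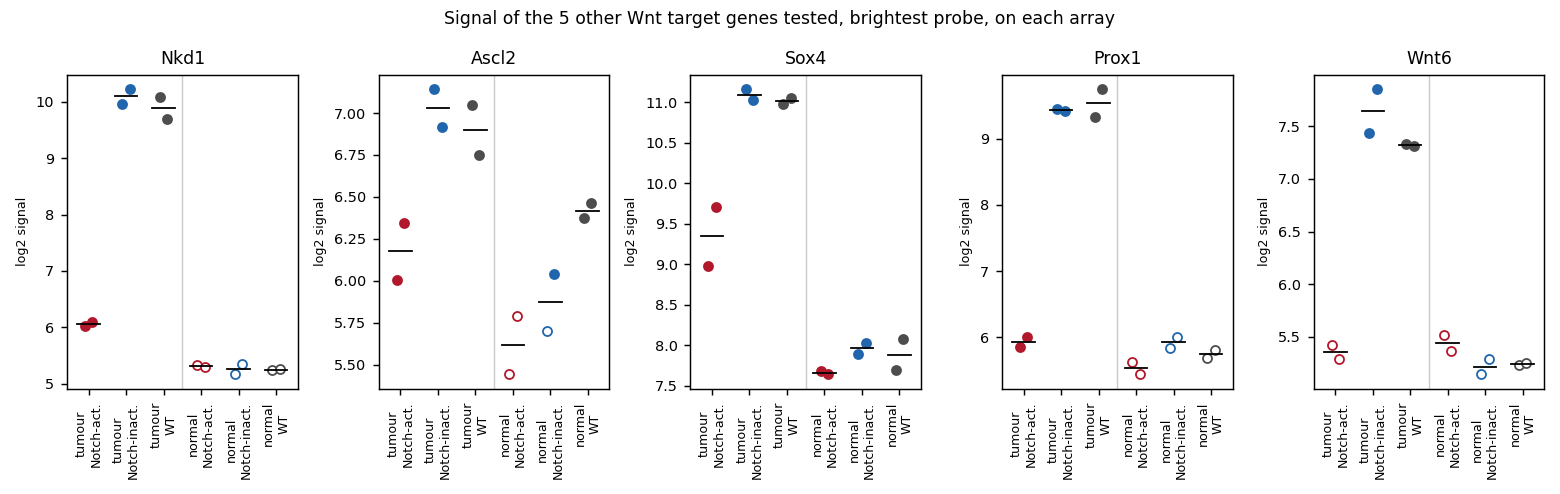
Log2 signal (vertical axis) of 5 other Wnt target genes, each by its brightest probe, on the 12 arrays, in tumours and then normal tissue, with Notch-activated (red), Notch-inactivated (blue) and WT (grey) samples. Points are arrays, open where not above background, and black lines are means of 2 arrays. Notch-activated tumours are the lowest tumours for every gene, and for Nkd1, Prox1 and Wnt6 they lie near normal tissue.

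Among 16 tested components of the Wnt pathway, 0 were called higher and 3 lower in Notch-activated than in WT tumours. Over all probes 12.2% were called higher and 11.3% lower, which is also the background for the list counts that follow. The largest differences were those of Tle1, a Groucho family corepressor that binds TCF proteins (-1.83; limma, adjusted p = 0.00170), and Csnk1e, a kinase of the Dishevelled and beta-catenin complexes (-1.63; adjusted p = 3.32e-05). In WT tumours Tle1 was 3.24-fold and Csnk1e 8.02-fold higher than in WT normal tissue.

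Of 7 tested G1 genes that act with or against cyclin D1, 1 was called higher and 0 lower in Notch-activated than in WT tumours: Fbxo4, an F-box protein that marks cyclin D1 for degradation (0.70; limma, adjusted p = 0.00106). Cdkn1a, the CDK inhibitor p21, fell by 0.59 in WT tumours against WT normal tissue, a call lost without array 2 of either group (adjusted p 0.0558 and 0.0606). Between Notch-activated and WT tumours it differed by 0.35, which was not called (adjusted p = 0.120). Of 5 tight junction genes, 2 were called higher and 0 lower: the scaffold gene Cgn (0.44; adjusted p = 0.0159; lost without either WT tumour array or Notch-activated tumour array 1) and Marveld3, which is named after its value was seen. Marveld3 averaged 10.55 in Notch-activated and 10.07 in WT tumours, a larger difference than that of Cgn. The claudin gene Cldn4 differed between these tumours by -0.11 (adjusted p = 0.770), while it rose by 2.27 in WT tumours against WT normal tissue. WT normal tissue was the lowest group for Cldn4, at a mean of 10.08. Its mean was 12.03 in Notch-activated and 11.75 in Notch-inactivated normal tissue, and 12.25, 12.55 and 12.35 in Notch-activated, Notch-inactivated and WT tumours.

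Of 4 tested Eph receptors and ephrins, the receptor gene Epha4, named after its value was seen, was called higher. The receptor gene Ephb4 was lower (-0.66; limma, adjusted p = 0.0213), a call lost without any 1 of 3 of the 4 arrays compared, Notch-activated array 2 being the exception (up to 0.161). The ligand gene Efna5 was called higher in WT tumours than in WT normal tissue, by at least 1.14-fold (adjusted p = 0.00967; 0.0809 without WT tumour array 2). Of 10 ligands and partners of CD44, 2 were called higher and 1 (Hyal1) lower. Rdx, which encodes the actin linker radixin, was higher by 1.08 (adjusted p = 0.00527), and the other was Ezr, its relative. Ezr and Hyal1 are named after their values were seen. Spp1, which encodes the CD44 ligand osteopontin, was at least 20.0-fold higher in tumour than normal tissue of Notch-activated mice and at least 11.6-fold in WT mice (limma, adjusted p = 0.000464 and 0.000130). The Spp1 difference between these tumours was 0.65 (adjusted p = 0.444), and it was 1.57 without WT tumour array 2 (adjusted p = 0.0284). Of 7 other stem and progenitor markers, 2 were called higher and 1, Ascl2, lower. The retinaldehyde dehydrogenase gene Aldh1a1 was higher by 1.54 (adjusted p = 0.00967; 0.0729 without Notch-activated tumour array 1), and it fell by 1.60 in WT tumours against WT normal tissue. The receptor regulator Lrig1 was higher by 0.93 (adjusted p = 0.0485), a call lost without 9 of the 12 arrays, among them WT tumour array 1 (0.50, adjusted p = 0.334). Lrig1 fell by 1.20 in WT tumours against WT normal tissue (adjusted p = 0.00733; 0.0624 without WT tumour array 1).

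Some markers of other cells moved with the same comparisons, and their part in the results was not tested. The summed linear signal of 5 of 9 myeloid markers was 1162 to 1346 in Notch-activated tumours, 3521 to 4205 in Notch-inactivated tumours and 2208 to 3118 in WT tumours, and 244 to 429 in normal tissue. That of 5 of 8 fibroblast and matrix markers was 3863 to 4465 in Notch-activated tumours, 7068 to 10105 in Notch-inactivated tumours and 7571 to 8967 in WT tumours, and 299.8 to 484 in normal tissue. Notch-activated tumours were thus the lowest tumours on both lists, as they were for Cldn2 and Cd24a, and Cd44 on myeloid cells could not be separated from Cd44 on epithelium. On each list 3 of 5 markers were called lower in Notch-activated than in WT tumours, against 11.3% of all probes. Linear sums follow the brightest markers. In WT tumours these were Lyz2 on the myeloid list (mean 10.77, the next being C1qb at 8.86). On the fibroblast list they were Dcn and Mgp (12.37 and 11.12, the next being Col3a1 at 8.50). The sum of 3 of 6 endothelial markers was 537 to 720 in Notch-activated, 542 to 612 in Notch-inactivated and 609 to 814 in WT tumours, with 0 called between Notch-activated and WT tumours. Igkc of plasma cells and Cd3e of T cells were not called there either. The 3 of 8 epithelial markers tested, all of them keratins, summed to 20792 to 22803 in Notch-activated tumours, 15921 to 17943 in Notch-inactivated tumours and 16763 to 18983 in WT tumours. Of these 3, 1 was called higher and 0 lower in Notch-activated than in WT tumours, against 12.2% of all probes called higher. Krt19 averaged 12.44 in Notch-activated and 11.17 in WT tumours, Krt8 13.57 and 13.50, and Krt18 11.98 and 11.94.

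Paneth cell markers, 4 of 5 tested, moved in part with Prom1 and Cd24a. Their summed signal was 176 to 343 in Notch-activated tumours, with 2 of the 4 at background, against 9387 to 15304 in Notch-inactivated and 11120 to 12568 in WT tumours. In normal tissue it was 184 to 199.9 in Notch-activated, 6915 to 8372 in Notch-inactivated and 260 to 274 in WT samples, with 3, 0 and 3 markers at background. The Paneth sum was thus high in Notch-inactivated tumours, WT tumours and Notch-inactivated normal tissue, the 3 groups in which Prom1 and Cd24a were highest. In Notch-activated tumours the Paneth sum was near that of WT normal tissue, while Prom1 was well above its WT normal level on both arrays. In Notch-activated normal tissue the sum was below that of WT normal tissue, with 0 of the 4 markers called, while Prom1 was higher there by 0.58. From normal tissue to tumours of Notch-inactivated mice the sum rose, with 1 of the 4 markers called higher, against 26.5% of all probes. Prom1 differed by -0.30 in that comparison, which was not called. Only 1 goblet marker of 6, Clca1, was tested. Its linear signal was 56.1 to 107 in Notch-activated, 284 to 3218 in Notch-inactivated and 224 to 4385 in WT tumours, and the Notch-activated minus WT difference was not called (limma, adjusted p = 0.114). In normal tissue it was 95.8 to 1109 in Notch-activated, 11025 to 16349 in Notch-inactivated and 14821 to 15619 in WT samples.

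The genes most like each member were found by the root mean square difference between the 6 group means, each profile centred on its own mean, among 4887 named genes. The nearest profiles of Cd44 probe 1 were those of Rps23 and Ccnd1, both at 0.128, and of Ccnd1 probe 1 those of Cd44 at 0.128 and Cebpb at 0.145. Cldn2 was nearest to Tgif2 (0.046) and Cd24a to Il11ra1 (0.157). Tgif2 averaged 5.11 to 5.31 in the normal groups and 5.44 in Notch-activated tumours, below the background limits. Cd44 probe 1 was at background in Notch-inactivated and WT normal tissue, so these likenesses rest in part on values at background. The nearest to Prom1 was Prnp at 0.218, over a range of 1.61 between the Prom1 group means.

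Promoters in the RefSeq table covered 4 of the 6 members with 5 windows, and Ccnd1 and Cd24a were not matched. The TCF and LEF core CTTTG, read on both strands in the 250 bases before the start, was found at Cd44 (163 bases before the start) and Cldn2 (154 bases before), shown above, and in 0 windows of Ephb2 and Prom1. The RBPJ core TGGGAA was found at 207 and 179 bases before the start of Cd44 and at 116 bases before that of the first Prom1 window. It had 0 matches in the second Prom1 window and in the windows of Ephb2 and Cldn2. Of 32851 promoters in the table, 48.6% held CTTTG and 21.6% held TGGGAA. Cd44 and Cldn2 share the CTTTG match, and of these Cldn2 was called lower in Notch-activated than in WT tumours and Cd44 was not called. A match is a description of the letters, not a site.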

How the data were processed

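Total RNA was extracted with Trizol and an RNeasy kit and labelled as biotinylated cRNA, per the labels' protocols, and hybridised to Illumina bead arrays. The values used are those the authors deposited for each array. The deposited values were read as quantile-normalized log2 values, an inference from the files, since all 12 columns share 1 distribution with a median of 5.54 and a maximum of 14.2 and no source used here states the scale. The 24 value columns of a second, non-normalized table could not be tied to samples and were not used. Probes were named by the gene number that follows 1 or 2 leading zeros in the identifier. Of such numbers, 81.1% and 84.8% match a mouse gene, against 10.6% for identifiers with no leading zero, and the 559 pairs of probes with the same number had a median correlation of 0.76.

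After 549 control probes were left out, a probe was kept when it exceeded the background limit, the 95th percentile of 61 foreign probes, on at least 2 arrays, which left 21322 of 46079. Group means of all 12 arrays were fitted with limma 3.58.1 (R 4.3.3) and tested with eBayes in 10 contrasts. P-values were adjusted by Benjamini-Hochberg within each contrast over all kept probes and called under 0.05. Where both arrays of a group were at background, the difference is given as a bound, or not at all where it did not pass the background limit. The script was tested on simulated data. With 2 arrays per group, their number limits the precision.

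The members, the gene lists and the tests were chosen with earlier results of these data known. The text names every member probe, the 3 genes nearest to a member or fewer, and, for each list, the genes with the largest Notch-activated minus WT tumour difference and the largest WT tumour minus normal difference, at most 4. The tight junction list departs from this: Cgn was followed through the alternatives, although Marveld3 had the larger difference between Notch-activated and WT tumours. Alternatives were cyclic loess, no filter or a filter on all 12 arrays, the brightest probe per named gene, a prior variance that follows the signal, fits of the compared groups only, a replicate block and leaving out each array in turn. The limit from the MJ control probes was chosen after seeing the data. Replicate numbers were not used to pair samples in the main fit. Over 15 pairs of groups the deviations of same-numbered arrays correlated between -0.38 and 0.35. Since the numbering may be arbitrary, these values cannot show whether arrays of different groups share a mouse or a batch.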

Additional observations from a re-analysis of the deposited data

Results flagged for a closer look

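For Prom1 the tumour change differed between genotypes by the test of that difference. The tumour minus normal difference was smaller in Notch-activated than in WT mice by a difference of -0.80 (limma, adjusted p = 0.0323), and smaller in Notch-inactivated than in WT mice by -1.36 (adjusted p = 0.0239). The first call was lost without WT normal array 2 (-0.62, adjusted p = 0.103), WT tumour array 1 (-0.70, adjusted p = 0.115) or any 1 of the 4 Notch-activated arrays (adjusted p 0.0740 to 0.0935). The second was lost without WT normal array 2 (-1.17, adjusted p = 0.0669), WT tumour array 1 (-1.26, adjusted p = 0.0694), Notch-inactivated tumour array 2 (-1.26, adjusted p = 0.0826) or either Notch-activated normal array (adjusted p = 0.0561). Both tests share the WT arrays. Against WT tumours, Prom1 differed by -0.23 in Notch-activated and 0.25 in Notch-inactivated tumours, neither of them called. Against WT normal tissue it was higher by 0.58 and 1.61 in normal tissue of those genotypes, both called. The summed signal of Paneth cell markers was high in the groups in which Prom1 was highest. In Notch-activated normal tissue, where Prom1 was higher than in WT, the sum was 184 to 199.9 against 260 to 274. There 3 of the 4 Paneth cell markers were at background in each group, and 0 were called between the groups. The part of these cells in the result was not tested.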

How the results depend on the processing

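Across 8 alternatives other than leaving out an array, 638 of 652 member values kept direction and call, 11 lost the call, 3 gained it and 0 changed sign. Leaving out 1 array kept 959 of 1068, ended 73 calls, added 14 and turned 22 uncalled values. The cause was not tested, beyond the fewer arrays or probes entering a fit.

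Requiring signal above background on all 12 arrays (11414 probes) left 2506, 6280 and 6443 calls for tumour minus normal in Notch-activated, Notch-inactivated and WT mice, against 5694, 11398 and 11202. For Notch-inactivated minus WT it left 8 in tumours, 617 in normal tissue and 83 for the difference of tumour change, against 50, 958 and 167. Fitting the compared groups only gave 0, 242 and 69 for those last 3.

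Without 1 array, tumour minus normal gave 2623 to 6015 calls in Notch-activated, 8641 to 11369 in Notch-inactivated and 8633 to 11526 in WT mice. Between tumours it gave 3042 to 5205 for Notch-activated minus WT, 23 to 51 for Notch-inactivated minus WT and 2978 to 5219 for Notch-activated minus Notch-inactivated. In normal tissue it gave 1017 to 2068 for Notch-activated and 370 to 927 for Notch-inactivated minus WT. For the difference of tumour change it gave 1665 to 2977 and 60 to 176.

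Values that changed sign without an array, none of them called with the turned sign, had these ranges. Tumour minus normal, Ephb2 probe 1 ran from -0.077 to 0.090 in WT and from -0.40 to 0.12 in Notch-inactivated mice. For Notch-activated minus WT tumours, Cd44 probe 2 ran from -0.25 to 0.16, Efna5 from -0.074 to 0.50, Spp1 from -0.27 to 1.57 and Cldn4 from -0.40 to 0.19. For Notch-inactivated minus WT tumours, Cd44 probe 1 ran from -0.10 to 0.22 and Ephb2 probe 1 from -0.018 to 0.16. For Notch-activated minus Notch-inactivated tumours, Ephb2 probe 1 ran from -0.061 to 0.24 and Cd44 probe 2 from -0.063 to 0.34. In normal tissue against WT, Ccnd1 probe 3 ran from -0.21 to 0.27 and Cldn2 from -0.099 to 0.023 in Notch-activated samples, and Cldn2 from -0.12 to 0.28 and Ephb2 probe 1 from -0.041 to 0.48 in Notch-inactivated samples. The difference of tumour change from WT ran from -0.34 to 0.27 for Ccnd1 probe 1, -0.10 to 0.53 for Ccnd1 probe 2 and -0.52 to 0.065 for Cd44 probe 1 (fitted, with WT normal tissue at background) in Notch-activated mice, and from -0.31 to 0.089 for Cldn2 and -0.40 to 0.11 for Ephb2 probe 1 in Notch-inactivated mice.

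With the replicate number as a block, counts moved within 1.5 times (5493 against 5694 for tumour minus normal in Notch-activated mice, and 124 against 167 for the difference of tumour change in Notch-inactivated mice). The replicate block ended the WT tumour call of Cd24a (limma, adjusted p = 0.0536), the normal tissue call of Cd44 probe 1 (0.0645) and the call of Lrig1 (0.0622), and it added that of Prom1 in Notch-inactivated tumours against normal tissue (0.0366). Over 15 pairs of groups, the deviations of same-numbered arrays had a median r of 0.014.

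Other settings ended calls near the threshold. Cyclic loess ended the normal tissue call of Prom1 in Notch-activated samples (limma, adjusted p = 0.0699) and added that of Cd24a in Notch-inactivated samples (0.0460). Without the filter, Cd24a in WT tumours (0.0617), Prom1 between Notch-activated and Notch-inactivated tumours (0.0558) and Cd44 probe 1 in Notch-activated normal tissue (0.0591) were not called. Fits of the compared groups only ended the tumour minus normal calls of Cd44 probe 2 in Notch-activated mice (0.0912) and Cd24a in WT mice (0.0965), those of Ccnd1 probe 2 (0.0534) and Prom1 (0.0656) in Notch-activated normal tissue, and of the Notch-inactivated Prom1 difference of tumour change (0.0934). The limit from the MJ control probes, chosen after seeing the data, changed no member call. The non-normalized table was not run, since its columns could not be tied to samples. Depth cannot be given for arrays: Cd44 probe 2 and Ephb2 probe 2 lie so near background that only large differences could be measured.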
